A study of Rattus norvegicus with 29 samples.

Results

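Transthyretin (Ttr) and 4 other genes used as markers of the choroid plexus epithelium, Enpp2, Clic6, Kl and Kcnj13, were followed across 29 microarrays of rat basolateral amygdala. The members were chosen on the spread of the Ttr signal among the baseline arrays together with their use as markers, and the question was whether the other markers follow it. The spread of Ttr is therefore described here and not tested. Of the 5 genes, 4 had a probe set of their own, 1 each, among 10411 genes with such a probe set and 15866 probe sets in all: Ttr (1367598_at), Enpp2 (1368536_at), Kl (1369361_at) and Kcnj13 (1369261_at). Clic6 matched no probe set by symbol, gene identifier or accession and was not analysed here. A further probe set carried Ttr together with other symbols, 3 in all, and was not read as Ttr. Ttr and Enpp2 passed the filter on low signals, and Kl and Kcnj13 did not.

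The series addressed expression that accompanies long-term memory of fear conditioning, and how the anaesthetic isoflurane alters it. It held 9 arrays of baseline controls and 5 arrays each of rats given the painful stimulus alone, isoflurane alone, fear conditioning, and fear conditioning under isoflurane. The labels place the treated rats 6 h after treatment. Strain, sex and age were not given in the labels, a rat number was given for the pain and both conditioning groups only, and only the baseline and isoflurane arrays came with the name of a labelling kit. Nothing in the labels says that all arrays came from separate rats, so the p-values measure the spread between these arrays.

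The choroid plexus is the secretory epithelium of the brain ventricles that makes cerebrospinal fluid. Its cells secrete transthyretin, the carrier of thyroid hormone and of retinol-binding protein, in amounts that make Ttr one of the most abundant transcripts of that tissue, and they carry channels, transporters and tight junctions between blood and fluid. Enpp2 encodes autotaxin, which makes the lipid mediator lysophosphatidate and is also made by oligodendrocytes. Kl encodes Klotho, the co-receptor of FGF23, and Kcnj13 the inward rectifier potassium channel Kir7.1.

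The start regions of 3 choroid plexus genes are shown because their probe sets were all far higher on the same array, as described further on. Each runs from 250 bases before to 50 bases after the start of the gene, 5′ to 3′ on the gene's strand, from RefSeq on GRCr8. The regions are Ttr at chr18:12218508-12218807, F5 (coagulation factor V) at chr13:79046407-79046706 and Mfrp (membrane frizzled-related protein) at chr8:53342284-53342583, all on the plus strand, and capitals mark a match to the OTX-type homeodomain core TAATCC on either strand.
Ttr: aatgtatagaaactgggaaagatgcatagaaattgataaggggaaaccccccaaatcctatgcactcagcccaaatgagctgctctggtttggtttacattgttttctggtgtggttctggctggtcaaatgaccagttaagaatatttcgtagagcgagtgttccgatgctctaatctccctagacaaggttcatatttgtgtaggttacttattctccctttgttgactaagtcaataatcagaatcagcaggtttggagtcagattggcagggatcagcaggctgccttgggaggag
F5: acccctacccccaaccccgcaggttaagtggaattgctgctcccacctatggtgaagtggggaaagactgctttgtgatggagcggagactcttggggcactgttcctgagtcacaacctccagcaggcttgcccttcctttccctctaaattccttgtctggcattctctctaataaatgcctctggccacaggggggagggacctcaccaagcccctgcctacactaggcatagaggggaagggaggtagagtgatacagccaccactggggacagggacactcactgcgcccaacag
Mfrp: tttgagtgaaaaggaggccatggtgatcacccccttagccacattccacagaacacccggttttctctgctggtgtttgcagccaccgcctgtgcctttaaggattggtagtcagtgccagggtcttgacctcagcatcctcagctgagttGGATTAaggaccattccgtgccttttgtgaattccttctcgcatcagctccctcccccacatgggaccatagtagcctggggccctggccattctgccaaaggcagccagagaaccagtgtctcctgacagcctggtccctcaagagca
The letters TAATCC, or GGATTA on the other strand, were present once in the Mfrp region, 99 bases before the start (-99), and in neither of the other regions. Over 27457 start regions of 300 bases, 7.11% held TAATCC on either strand. The forkhead core TGTTTAC, on either strand, was in 3.76% of them, and neither motif is contained in the other. Of the 3 members with a region in the table (Ttr, Kl and Kcnj13), 0 held either motif. Of the 24 other choroid plexus genes with a region, 2 held the homeodomain core and 1 the forkhead core. These are matches of letters and no measure of binding.

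Ttr was high on 1 baseline array. Its deposited signals, in linear units, were 15284.2, 139.9, 282.4, 171.3, 177.8, 128.0, 131.9, 1420.1 and 322.0 on baseline replicates 1 to 9. Replicate 1 lay far above the rest of its group, replicate 8 came next, and the other 7 lay between 128.0 and 322.0. On the pain arrays the Ttr signals were 339.0, 226.4, 402.8, 195.5 and 215.2. Under isoflurane alone they were 282.5, 228.5, 156.4, 205.1 and 215.7. After conditioning the signals of Ttr were 365.6, 354.1, 236.3, 163.0 and 584.7. For conditioning under isoflurane they were 309.5, 504.5, 120.7, 206.4 and 1666.9, with replicate 5 well above its group. All groups overlapped, and without baseline replicate 1 every array fell between 120.7 and 1666.9. The first baseline array was 67.2 times the median of the other 28 arrays (227.45) and 9.17 times the highest of them. In bulk tissue, a larger number of cells of one type and more RNA per cell cannot be told apart.

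Enpp2 was high on the same array. Its signals on baseline replicates 1 to 9 were 4154.5, 898.4, 610.7, 488.9, 694.3, 510.0, 551.4, 692.7 and 576.0. Pain arrays gave Enpp2 signals of 660.5, 622.4, 710.3, 722.0 and 637.0, and isoflurane arrays 713.2, 684.1, 570.2, 784.9 and 566.3. Conditioning arrays gave 590.2, 852.8, 618.9, 823.4 and 1210.8, and arrays of conditioning under isoflurane 748.1, 664.6, 839.0, 646.7 and 502.0. Baseline replicate 1 was the highest, at 6.27 times the median of the other 28 arrays (662.55) and 3.43 times the highest of them, which was conditioning replicate 5. On baseline replicate 8 and on replicate 5 of conditioning under isoflurane, where Ttr was next highest, Enpp2 lay within the range of the other arrays at 692.7 and 502.0.

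Kl and Kcnj13 were dim throughout. Kl signals on baseline replicates 1 to 9 were 44.2, 6.7, 8.9, 10.9, 12.4, 2.4, 10.9, 55.9 and 11.5. The other Kl signals lay between 5.6 and 28.9 after pain, 3.3 and 23.5 after isoflurane, 3.4 and 26.2 after conditioning, and 7.3 and 22.4 after conditioning under isoflurane. Baseline replicates 8 and 1, the arrays first and next in Kl, also had high Ttr, and 19 of the 29 arrays stood at the floor of 16 applied before the log2 scale. Kcnj13 signals on baseline replicates 1 to 9 were 15.6, 70.2, 73.1, 67.5, 16.7, 34.8, 43.1, 11.0 and 55.2. Kcnj13 thus lay near its lowest on baseline replicates 1 and 8, the baseline arrays with the most Ttr. Across the treated arrays Kcnj13 ran from 56.2 to 108.9 after pain, 43.3 to 87.4 after isoflurane, 26.5 to 76.8 after conditioning, and 15.6 to 74.1 after conditioning under isoflurane, and every group overlapped the baseline range.

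**Figure D1:**
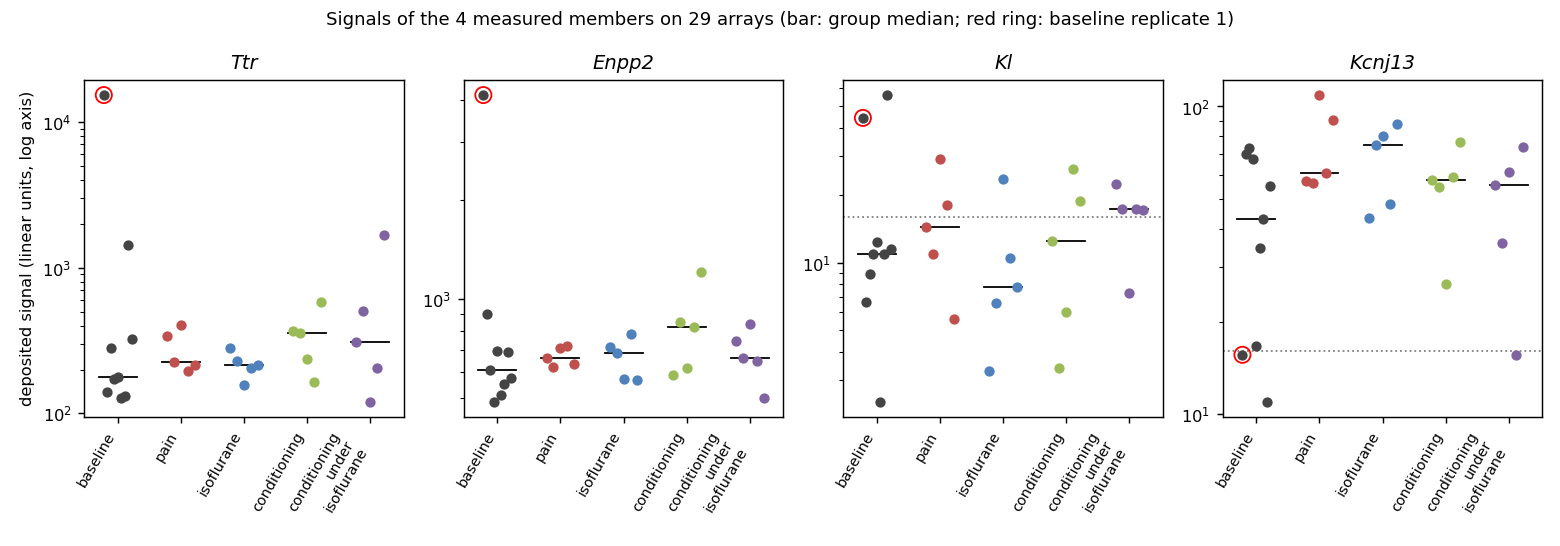
Deposited signal of Ttr, Enpp2, Kl and Kcnj13 (linear units, log axis, own scale per panel) on every array by group; bars are group medians, the red ring is baseline replicate 1 and the dotted line is the floor of 16. The ringed array is the highest for Ttr (15284.2) and Enpp2 (4154.5), next to highest for Kl (44.2) and among the lowest for Kcnj13 (15.6).

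On the log2 scale after quantile normalization, mean Ttr was 8.58 (SD 2.24, n = 9) in baseline, 8.51 (SD 1.42, n = 5) in conditioning under isoflurane, 8.27 (SD 0.68, n = 5) in conditioning, 8.00 (SD 0.38, n = 5) in pain and 7.75 (SD 0.36, n = 5) in isoflurane. Each step between neighbours in that order was smaller than the SD of either group. Without baseline replicate 1 the baseline mean of Ttr was 7.92 (SD 1.12, n = 8), which placed baseline between pain and isoflurane in the order. As a description of the spread that chose the gene, the baseline SD of Ttr was the largest of 9520 probe sets tested, whose median SD was 0.22. Its rank was 19 without replicate 1. Mean Enpp2 was 9.58 (SD 0.94, n = 9) in baseline and 9.28 (SD 0.29, n = 8) there without replicate 1, against 9.64 (SD 0.41, n = 5) in conditioning. The means of Enpp2 were 9.39 (SD 0.09, n = 5) in pain, 9.37 (SD 0.20, n = 5) in isoflurane and 9.39 (SD 0.27, n = 5) in conditioning under isoflurane.

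Neither tested member passed the test between the groups. In the limma F test over the 5 groups, 0 of the 2 members passed an adjusted p of 0.05, where 0% of all 9520 probe sets were called (700 had an unadjusted p under 0.05). The adjusted p was 0.927 for Ttr and 0.953 for Enpp2, and 0.851 and 0.706 without baseline replicate 1. In the same fit, 0 of 2 members were called in any of 8 comparisons of groups, and 0 had an unadjusted p under 0.05. Over all probe sets the called share was 0.0105% for isoflurane minus baseline and 0% for the other 7 comparisons, with 351 to 966 of 9520 at an unadjusted p under 0.05. With the filter on low signals removed, 0 of 4 members were called in the F test, where 0.0126% of 15866 probe sets were, and 0 in each comparison, where the share was 0.0063% for isoflurane minus baseline and 0% for the rest.

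The comparisons with baseline share its arrays, and each moved when baseline replicate 1 was left out. Pain minus baseline was -0.58 for Ttr (SE 0.73, limma adjusted p 0.855) and 0.08 (SE 0.47) without that array. Isoflurane minus baseline was -0.84 for Ttr (limma adjusted p 0.984) and -0.18 without it. Conditioning minus baseline was -0.31 (limma adjusted p 0.913) and 0.35 without it, and conditioning under isoflurane minus baseline was -0.07 (limma adjusted p 0.991) and 0.59 without it. The sign of 3 of the 4 Ttr differences from baseline thus turned with 1 array, and none passed the test with or without it. For Enpp2 the same 4 differences, in the same order, were -0.19, -0.21, 0.06 and -0.19 (SE 0.30 each), with limma adjusted p from 0.890 to 0.986. Without the array they were 0.11, 0.09, 0.36 and 0.11 (SE 0.15 each). The Enpp2 value of 0.36 for conditioning had an unadjusted limma p of 0.0228 and an adjusted p of 0.450, so it did not pass.

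The differences between treated groups did not use the baseline mean. Their SEs and p-values came from a spread pooled over all groups, baseline included. The interaction used the baseline mean as well. Conditioning minus pain was 0.27 for Ttr (SE 0.83) and 0.25 for Enpp2 (SE 0.34). Conditioning under isoflurane minus conditioning was 0.24 for Ttr and -0.25 for Enpp2. Conditioning under isoflurane minus isoflurane was 0.76 for Ttr and 0.02 for Enpp2. Leaving out replicate 5 of conditioning under isoflurane, the array of that group with high Ttr, turned the Ttr difference from conditioning to -0.30. The interaction, the difference that conditioning made under isoflurane minus the difference it made without, was 1.08 for Ttr (SE 1.10, limma adjusted p 0.966) and -0.04 for Enpp2 (SE 0.45, limma adjusted p 1.000). Without baseline replicate 1 the interaction was 0.42 for Ttr and -0.34 for Enpp2.

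**Figure D2:**
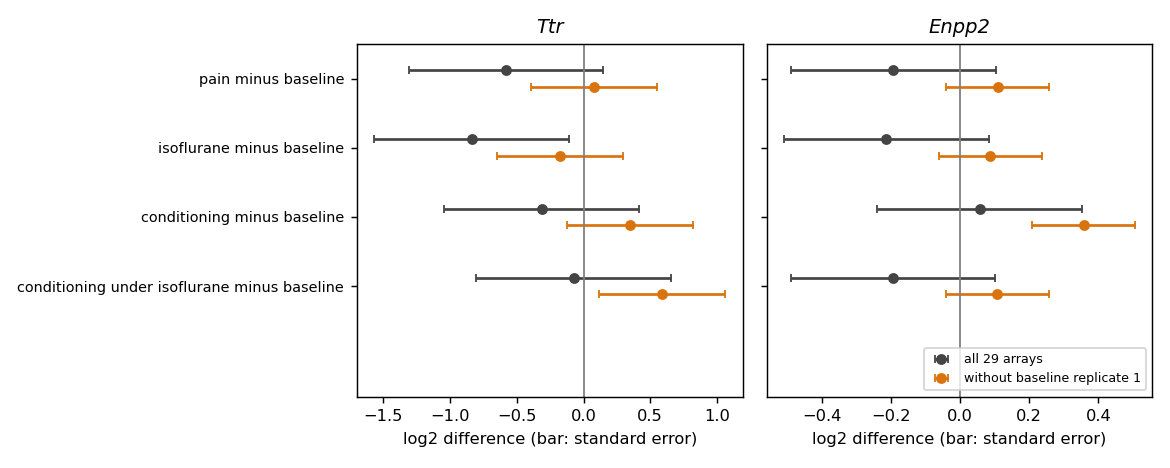
Difference of each treated group from baseline for Ttr and Enpp2 (x axis, log2 units; bars are standard errors), over 29 arrays (grey) and without baseline replicate 1 (orange). Leaving out that array moved Ttr after conditioning under isoflurane from -0.07 to 0.59, and no difference passed the test either way.

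Whether the other members follow Ttr was examined as a slope, the log2 units gained per log2 unit of Ttr within groups. The slope of Enpp2 was 0.27 (SE 0.06, limma adjusted p 0.0432), 1 of 8 probe sets called, which are 0.084% of the 9519 tested (0.0315% above 0 and 0.0525% below). Without baseline replicate 1 the slope of Enpp2 was -0.019 (SE 0.060, limma adjusted p 0.999) and 0% of probe sets were called (319 had an unadjusted p under 0.05). The call also ended when any 1 of 18 other arrays was left out, with slopes from 0.26 to 0.33 among all arrays other than baseline replicate 1. Among the 20 treated arrays alone the slope was -0.060 (limma adjusted p 1.000). With the filter removed, 0.139% of 15865 probe sets were called (0.0882% above 0 and 0.0504% below) and 0 of the 3 members, though 2 had an unadjusted p under 0.05: Enpp2 then had an adjusted p of 0.0680, Kl a slope of 0.22 (SE 0.05, adjusted p 0.180) and Kcnj13 a slope of -0.18 (SE 0.09, adjusted p 0.815).

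The same relation as a correlation of group-centred log2 values was computed for 3 genes, with two-sided permutation p-values that are not adjusted. Enpp2 and Ttr had a Pearson r of 0.68 (permutation p 0.0672) and a Spearman rho of 0.22 (permutation p 0.326) over 29 arrays. Leaving out baseline replicate 1 gave r = -0.06 (permutation p 0.774), and leaving out the 2 arrays farthest from the Ttr median (baseline replicate 1 and replicate 5 of conditioning under isoflurane) gave r = 0.15 (permutation p 0.534). The relation of Enpp2 with Ttr therefore rests on baseline replicate 1. Within the 9 baseline arrays r was 0.86 (exact permutation p 0.0365) with rho 0.40 (exact permutation p 0.291), and without replicate 1 r was 0.12 (exact permutation p 0.750, n = 8). Within the treated arrays r was -0.19 (permutation p 0.515).

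Kl and Ttr had r = 0.63 (permutation p 0.0366) and rho = 0.51 (permutation p 0.0243) over 29 arrays. Without the 2 farthest arrays r was 0.59 (permutation p 0.103), and without baseline replicate 1 it was 0.53 (permutation p 0.0765), with baseline replicate 8 high in both genes. It also missed the threshold without baseline replicate 8 (r = 0.67, permutation p 0.0772) and without replicate 3 of conditioning under isoflurane (r = 0.62, permutation p 0.0515). The rho of Kl was 0.26 (permutation p 0.196) without baseline replicate 1 and 0.32 (permutation p 0.142) without baseline replicate 8. It was 0.31 (permutation p 0.151) without the 2 farthest arrays and 0.31 (permutation p 0.106) with no group term. Without replicate 3 of conditioning under isoflurane rho was 0.48 (permutation p 0.0444). Among the treated arrays Kl had r = -0.07 (permutation p 0.776), and with a floor of 64 in place of 16 it had r = 0.27 (permutation p 0.221). Kcnj13 had r = -0.36 (permutation p 0.174) and rho = -0.27 (permutation p 0.230) over all arrays, and r = -0.32 (permutation p 0.224) without the 2 farthest. Within the baseline arrays r for Kcnj13 was -0.66 (exact permutation p 0.0379), the opposite direction to Enpp2 and Kl, with rho -0.36 (exact permutation p 0.339). Without replicate 1 the baseline r of Kcnj13 was -0.54 (exact permutation p 0.142, n = 8). Over all groups without that array it was -0.098 (permutation p 0.729), and among the treated arrays it was 0.29 (permutation p 0.449).

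**Figure D3:**
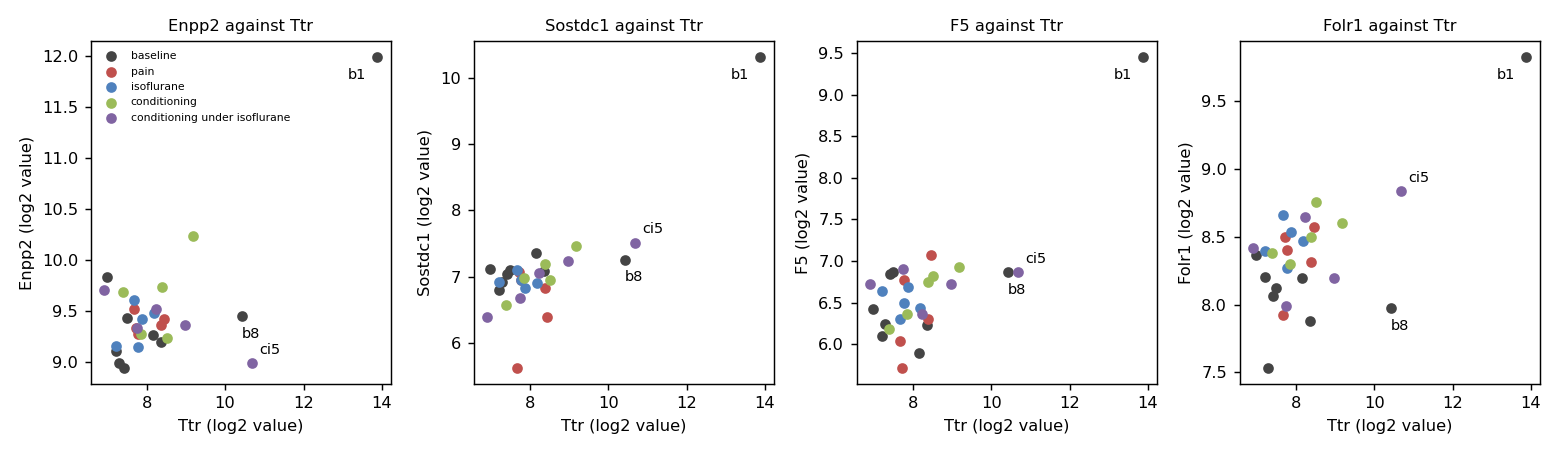
Group-coloured log2 values of Enpp2, Sostdc1, F5 and Folr1 (y axes) against Ttr (x axes) on 29 arrays; b1 and b8 mark baseline replicates 1 and 8, ci5 marks replicate 5 of conditioning under isoflurane. Array b1 stands apart in every panel, while b8 and ci5, next in Ttr, lie among the other arrays for Enpp2.

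Other markers of the epithelium were read from a list of 30 genes, of which 23 had 35 probe sets, 23 of these below the filter on low signals. Baseline replicate 1 was the highest of the 29 arrays in 15 of the 35 (42.9%), against 4.33% of all 15866 probe sets. The next array, pain replicate 1, was highest in 5. The summed signal of the list was 14825 on baseline replicate 1 and between 5965 and 9036 on the other arrays. In the unfiltered fit, 4 of the 35 probe sets had a slope on Ttr that passed, all above 0 (12 had an unadjusted p under 0.05), with a median slope of 0.11 against 0.00077 over all probe sets. Without baseline replicate 1, limma called 0 of the 35 (1 had an unadjusted p under 0.05), 17 were above 0, and 0.0063% of all probe sets were called.

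The leading gene of the list was Sostdc1, a secreted antagonist of BMP and Wnt signals. Sostdc1 measured 1261.4 on baseline replicate 1 and 47.4 to 174.9 on the other arrays, and its slope on Ttr was 0.41 (SE 0.05, limma adjusted p 0.000369). F5 measured 684.8 there and 54.7 to 181.2 elsewhere, with a slope of 0.36 (SE 0.06, limma adjusted p 0.00802). Folr1, the folate receptor that carries folate into the fluid, measured 890.9 there and 158.0 to 449.6 elsewhere (slope 0.21, limma adjusted p 0.0320). The homeodomain factor Otx2 was above the floor on that array only (1375465_at, 36.5 against 1.5 to 14.6), while its other probe set read 146.4 there and up to 206.0 elsewhere.

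Among the genes of the list next in order, Mfrp measured 779.9 on baseline replicate 1 and 29.6 to 202.9 elsewhere, with a slope of 0.33 (limma adjusted p 0.240). The angiotensin-converting enzyme gene Ace (1387791_at) measured 248.9 there against at most 181.6 elsewhere, and its other probe set (1370028_at) 114.6 against at most 120.0. The anion exchanger Slc4a2 measured 393.4 against at most 268.4, and the calmodulin-like Calml4 238.8 against at most 154.2. The copper importer Slc31a1 (1388534_at) measured 537.9 against at most 545.2, and was highest there only after normalization, by 0.041 log2 units. Its other probe sets read 150.7 and 77.1 against at most 213.2 and 85.5. The slopes of these genes did not pass, nor did that of the water channel Aqp1 (1369625_at), which measured 204.3 there and 4.8 to 77.6 elsewhere. The other Aqp1 probe set (1387651_at) was brighter and read 505.3 there, within its range of 117.7 to 576.1 elsewhere. Named after their values were seen, the tight junction gene Cldn2 measured 343.4 there against at most 148.1 elsewhere, and Igfbp2 2643.6 against at most 1838.0. Not all genes of the list were high on that array: the chloride cotransporter Slc12a2 measured 1225.5 against a median of 1119.90 on the other arrays, and the copper oxidase Cp (1368418_a_at) measured 84.8 with higher values elsewhere.

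**Figure D4:**
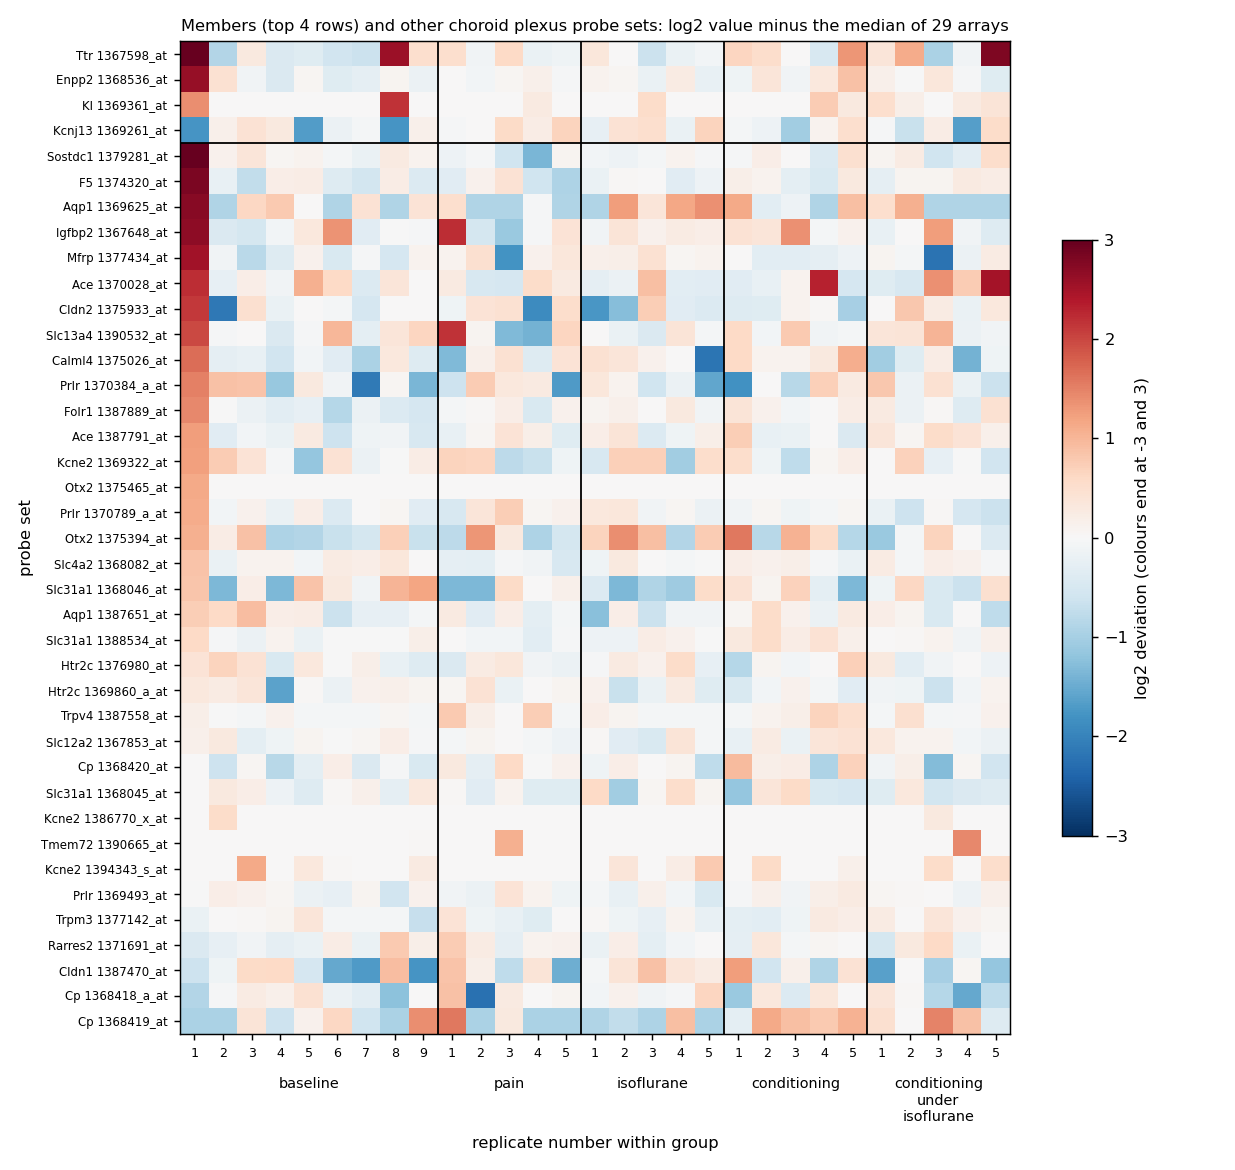
Deviation of each probe set (rows) from its median over 29 arrays (columns, by group), in log2 units, for the 4 measured members (top) and the 35 probe sets of the other choroid plexus genes, ordered by their value on baseline replicate 1. The order of the rows follows from the first column, which is highest of all arrays in 15 of the 35 rows.

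In all, 16 probe sets (0.101% of 15866) were more than 1 log2 unit higher on baseline replicate 1 than on any other array: 2 members, 6 of the choroid plexus list and 8 others. Ttr led at 3.20 log2 units above the next array, followed by Sostdc1 at 2.80, F5 at 2.38, Mfrp at 2.03 and, after a probe set with no symbol, Enpp2 at 1.75. Of the 8 others, picked here after their values were seen, the organic anion transporter Slco1a5 measured 445.4 against at most 195.2 elsewhere, and Mdk 1926.4 against at most 951.0. The arrays next in Ttr had part of the pattern at most. Baseline replicate 8, replicate 5 of conditioning under isoflurane, conditioning replicate 5 and replicate 2 of conditioning under isoflurane had 9.29%, 10.9%, 3.83% and 3.30% of the Ttr signal of baseline replicate 1. Their summed choroid plexus signals ranked 20, 26, 3 and 16 of 29, and their Sostdc1 signals were 132.0, 172.6, 174.9 and 149.6. The largest signals in the sum of conditioning replicate 5, which ranked 3, were Htr2c (1376980_at, 2237.9) and Slc12a2 (1500.8). Their medians over the arrays other than baseline replicate 1 were 1384.45 and 1119.9, so bright genes weigh most in these ranks. Conditioning replicate 5 had the highest Sostdc1 (174.9), Calml4 (154.2) and Enpp2 (1210.8) of the arrays other than baseline replicate 1, and replicate 5 of conditioning under isoflurane the highest Folr1 (449.6). Without baseline replicate 1, Sostdc1 had r = 0.54 with Ttr, F5 0.31 and Folr1 0.24, given as a description over 28 arrays.

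Markers of neighbouring cell types were read on the same array. Baseline replicate 1 was the highest array in 0 of 3 probe sets of ependymal genes, 0 of 19 of myelin, 0 of 23 of meninges and fibroblasts, 0 of 14 of endothelium and pericytes, 0 of 3 of red cells and 0 of 16 of astrocytes. The summed signals on that array were 439.0 for ependyma (311.0 to 713.3 elsewhere, with 3 of 13 listed genes measured) and 39186 for myelin (30668 to 55437). They were 32713 for astrocytes (30082 to 48957), which ranked 28 of 29, and 9220.5 for meninges (4376 to 20775), which ranked 4 of 29. Their part in the result was not tested. Genes listed for neurons of the labelled tissue gave mixed readings there, and these do not settle which tissue was taken. The vesicular glutamate transporter Slc17a7 (1368987_at) read 4249.3 (1537.0 to 4815.4 elsewhere) and Camk2a (1388187_at) 2238.6 (929.4 to 3380.9). The 11 probe sets of the list of basolateral amygdala neurons summed to 21988 (15234 to 24634 elsewhere), and 1 was highest there. Both probe sets of Nr2f2, of the same list, lay below every other array. They read 255.8 (1370063_at, 267.7 to 764.9 elsewhere) and 524.5 (1389554_at, 975.1 to 1581.8). The median deposited signal of the array was 242.3 (210.7 to 292.2 on the others). Its mean correlation with the others was 0.950 (0.906 to 0.966 on the others, median 0.961), below every array except pain replicate 3. Pain replicate 3, with the lowest such correlation, stood farthest apart as a whole and was highest in 2340 probe sets, but not in Ttr or Enpp2.

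Enpp2 varied with myelin genes once baseline replicate 1 was left out. Against the mean of 18 myelin probe sets, r of Enpp2 was 0.72 (permutation p 6e-05, rho 0.66 with permutation p 0.000700) over the 28 arrays without it, and 0.27 (permutation p 0.241) with it. Among the treated arrays r was 0.69 (permutation p 0.00195), and among the 28 without the 2 arrays farthest in the myelin mean (conditioning replicates 2 and 5) it was 0.66 (permutation p 0.000870). Baseline replicate 1 lay off that relation, with high Enpp2 at a myelin sum below the median of the other arrays (40984). Ttr had r = -0.15 (permutation p 0.515) with the myelin mean. With the myelin mean as a covariate, the slope of Enpp2 on Ttr was 0.30 (limma adjusted p 0.0100), and 0.015 (limma adjusted p 1.000) without baseline replicate 1.

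**Figure D5:**
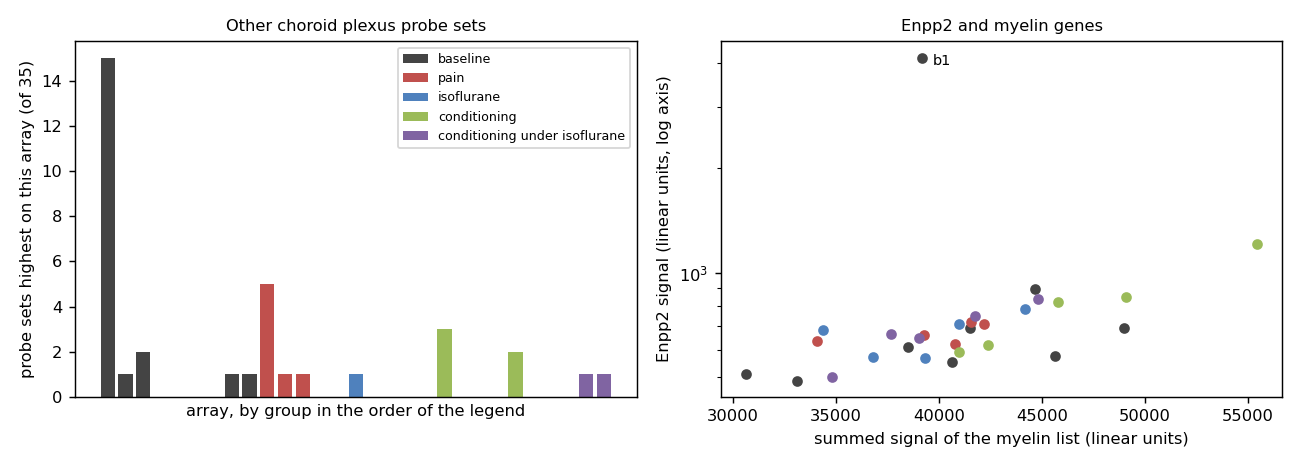
Left, number of the 35 other choroid plexus probe sets that are highest on each array (bars, coloured by group); right, Enpp2 signal (log axis) against the summed signal of the myelin list (linear units) on 29 arrays. Baseline replicate 1 (b1) is highest in 15 probe sets, and on the right it lies above the other arrays, which range from 488.9 to 1210.8 in Enpp2.

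Among genes that work with the members, 1 probe set had a slope on Ttr that passed in the unfiltered limma fit. Of 23 probe sets of thyroid hormone and retinol handling, 0 passed and 4 had an unadjusted p under 0.05. The retinol-binding protein receptor Stra6 (1390525_a_at) had the lowest p of these, with 117.9 on baseline replicate 1 and 3.2 to 83.2 elsewhere (slope 0.30, limma adjusted p 0.545). That probe set stood at the floor on 13 of the 28 other arrays. Stra6 probe set 1385475_a_at was also highest there (205.6 against at most 134.8). The brighter 1376962_at (240.5 against at most 254.6) and 1385476_x_at (266.3 against at most 345.5) were not. Of 14 probe sets of lysophosphatidate signalling, limma called 0 (1 at an unadjusted p under 0.05), and the receptor gene Lpar1 (1370048_at) measured 1021.5 on baseline replicate 1 against a median of 941.35 on the others. Limma called 0 of 17 probe sets of FGF23 and Klotho signalling and 0 of 6 of the intracellular chloride channel proteins related to Clic6, with 1 in each list at an unadjusted p under 0.05. Among 25 probe sets of inward rectifier potassium channels, 1 passed, below 0. It was Kcnj16 (1373991_at), the gene of Kir5.1, with 142.5 on baseline replicate 1 and 234.7 to 518.6 on the other arrays (slope -0.19, SE 0.04, limma adjusted p 0.0403 unfiltered and 0.0369 with the filter). Without baseline replicate 1 the slope of Kcnj16 was -0.087 (SE 0.057, limma adjusted p 1.000 unfiltered and 0.999 with the filter), and 0 of the 25 had an unadjusted p under 0.05, so the call rests on that array.

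Over all tested probe sets with 1 symbol, the genes whose group-centred values were most like Ttr over 29 arrays were Folr1 (Pearson r 0.73), the potassium channel subunit Kcnmb4 (0.72), Enpp2 (0.68), the growth factor midkine, Mdk (0.68), Hs3st2, Mrpl46, Pla2g5 and Vash1 (each 0.62), C20h6orf89 (0.61) and Asap1 (0.60). The least like were Slc39a3 (-0.81), N4bp2 (-0.74) and Kcnj16 (-0.71). These values share 1 array at the end of the Ttr range. Without it r was 0.24 for Folr1, 0.55 for Kcnmb4, 0.12 for Mdk and -0.49 for Slc39a3, and Enpp2 ranked 5059 in likeness where it had ranked 3.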

How the data were processed

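Each array gave 1 deposited intensity per probe set, on a linear scale; the deposited values of all arrays share about the same trimmed mean, and the software and settings the authors used are not given in the sources used here. No reads or depths exist for arrays, and the number of arrays (29) limits the precision. Probe sets were named through the platform annotation (12783 with 1 symbol, 312 with several, 2771 with none; 57 control probe sets left out). Because the log2 medians of the deposited intensities ranged over 0.47, arrays were quantile normalized, values under 16 were raised to 16, and log2 was taken; signals printed in the report are the deposited ones, and differences and slopes are log2 values. Probe sets whose mean over arrays reached the 40th percentile (log2 of 7.26), 9520 in all, entered limma 3.58.1 in R 4.3.3 (eBayes with trend, 1 mean per group, p adjusted by Benjamini-Hochberg over all tested, threshold 0.05); the slope on Ttr used group and Ttr as terms. The fits were tested on simulated data with normal noise and, for the slope, a normally distributed covariate. That setting does not cover a covariate with 1 array far from the rest, as Ttr has. Permutations were within groups (100000, two-sided; exact for the baseline arrays; SciPy 1.17.1). Named genes were the 5 members, the genes of each list with the lowest p for the slope (up to 10 for the choroid plexus list, 4 for others), the 10 most and 3 least like Ttr, and others where stated. The members, lists and tests were chosen with earlier results of these data known. Alternatives are given in the closing section.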

Additional observations from a re-analysis of the deposited data

Results flagged for a closer look

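The gap between the most extreme array of a group and its neighbour, as a share of the group's range, was read on log2 values for the 4 measured members and the 10 named genes of the choroid plexus list, in 65 groups of 5 or 9 arrays. The baseline group of Ttr was left out, since the members were chosen on its spread. The share passed Dixon's 95% value in 18 groups, 11 of them through baseline replicate 1. The rate of about 1 group in 20 that chance gives is no measure for these counts: the 10 genes were picked by their slope on Ttr, which that array moves, and 3 of the shares are 1.0 because the other arrays of the group stood at the floor. On baseline replicate 1, high, the shares were Enpp2 0.707, Sostdc1 0.841, F5 0.726, Folr1 0.636, Mfrp 0.717, Calml4 0.514, Slc4a2 0.495, Ace 0.531, Slc31a1 0.527, Aqp1 0.538, and Otx2 1.0 with all other baseline arrays at the floor. Kl was flagged on pain replicate 4 (18.0) and isoflurane replicate 3 (23.5), each with a share of 1.0. Mfrp was low on pain replicate 3 (0.835) and on replicate 3 of conditioning under isoflurane (0.827), and high on isoflurane replicate 3 (0.724). Calml4 was low on isoflurane replicate 5 (0.825) and Slc31a1 on pain replicate 4 (0.724).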

How the results depend on the processing

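In every setting run, limma called 0 members in the F test and in the 8 comparisons. Over all 9520 probe sets the counts moved with baseline replicates 6 to 9 only, where 160, 29, 101 and 57 were called for pain, isoflurane, conditioning and conditioning under isoflurane minus baseline (0, 1, 0 and 0 over all arrays) and 3 in the F test; no other setting called more than 10 in a comparison. The relations with Ttr did depend on the setting. The count of probe sets with a slope on Ttr that passed (8) was 3 with the deposited scaling alone, 22 with no filter, 5 with the 70th percentile filter, 3 without the variance trend, 5 with baseline replicates 1 to 5 only, 0 with replicates 6 to 9 only, 1 in the baseline arrays only, 0 in the treated arrays only, 0 without the 2 arrays farthest in Ttr, 3 with no group term, 1 with no filter and without baseline replicate 1 (added after seeing the data), and 0 to 16 as each array was left out in turn. The slope of Enpp2 did not pass with the deposited scaling alone (0.27, limma adjusted p 0.0517), no filter (0.27), without the variance trend (0.27), baseline replicates 1 to 5 only (0.28), 6 to 9 only (0.011), baseline arrays only (0.36) or without the 2 farthest arrays (0.049), and turned in treated arrays (-0.060) and without baseline replicate 1 with no filter (-0.019). Without that array and with the myelin mean as a covariate it was 0.015. It ran from -0.019 to 0.33 as each array was left out.

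The r of Enpp2 with Ttr passed in baseline arrays (0.86), with no group term (0.67) and with the myelin mean as a covariate (0.76), turned in treated arrays (-0.19), and ran from -0.064 to 0.79 as each array was left out, passing without replicate 3 (permutation p 0.0436) and without replicate 5 (0.0282) of conditioning under isoflurane. The r of Kl did not pass with a floor of 64 (0.27), baseline replicates 1 to 5 (0.66) or 6 to 9 (0.49) only, without the 2 farthest arrays (0.59) or in baseline without replicate 1 (0.91, exact permutation p 0.125, added after seeing the data), turned in treated arrays (-0.070), and ran from 0.53 to 0.69 as each array was left out, ending the call without baseline replicate 1 (permutation p 0.0765), baseline replicate 8 (0.0772) or replicate 3 of conditioning under isoflurane (0.0515). The r of Kcnj13 turned with a floor of 64 (0.14) and in treated arrays (0.29), passed in baseline arrays (-0.66) and with no group term (-0.41), and ran from -0.49 to -0.098, passing without replicate 5 of conditioning under isoflurane (permutation p 0.0461).

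Same-numbered arrays of different groups had a median r of -0.01 over 50 pairs, 12 above 0.1. Differently numbered arrays had a median r of -0.0010 over 200 pairs, 38 above 0.1. No pairing by number was seen in these medians, and a batch shared by number was not tested. With the replicate number as a block, 1 probe set passed for the slope on Ttr, the slope of Enpp2 was 0.29 (limma adjusted p 0.175) and the r of Enpp2 was 0.67 (permutation p 0.104). The r of Kl was 0.69 and no longer passed (permutation p 0.0924), with rho 0.62 (permutation p 0.0324). The block turned Enpp2 in conditioning minus baseline to -0.26 and in the interaction to 0.28, neither passing.

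Differences between groups that turned, none passing, were as follows. With baseline replicates 6 to 9 only, conditioning under isoflurane minus baseline was 0.19 for Ttr and 0.20 for Enpp2, pain minus baseline 0.20 for Enpp2 and isoflurane minus baseline 0.18. With baseline replicates 1 to 5 only, Enpp2 was -0.26 for conditioning minus baseline and 0.28 for the interaction, and with arrays centred on their medians -0.022 and 0.037. With no filter and without baseline replicate 1 (added), Ttr was 0.079, 0.35 and 0.59 for pain, conditioning and conditioning under isoflurane minus baseline, and Enpp2 0.11, 0.087 and 0.11 for pain, isoflurane and conditioning under isoflurane. As each array was left out, Ttr ran from -0.78 to 0.079 for pain, -0.54 to 0.35 for conditioning and -0.61 to 0.59 for conditioning under isoflurane minus baseline, and from -0.30 to 0.64 for conditioning under isoflurane minus conditioning. Enpp2 ran from -0.27 to 0.11 for pain, -0.29 to 0.087 for isoflurane, -0.094 to 0.36 for conditioning and -0.28 to 0.11 for conditioning under isoflurane minus baseline, -0.062 to 0.12 for conditioning under isoflurane minus isoflurane and -0.34 to 0.11 for the interaction. Slopes of choroid plexus genes that turned, none passing, were Slc4a2 (-0.024 with baseline replicates 6 to 9, -0.057 in treated arrays), Ace (-0.0030 and -0.052, and -0.016 to 0.17 leaving out each array) and Slc31a1 (-0.0069 and -0.0088, -0.025 without the 2 farthest arrays, and -0.0023 to 0.070 leaving out each array). The causes were not tested. Dim signals limit Kl, Kcnj13 and most of the choroid plexus list, which lay below the filter.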
